A study of Mus musculus with 18 samples.

Results

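Cd36 and 9 other genes of fatty acid uptake and binding were followed in the livers of 18 mice. The 10 genes were taken by name as genes whose products bring long-chain fatty acids into cells or carry them inside: the membrane receptor Cd36, the fatty acid transport proteins Slc27a1, Slc27a2, Slc27a4 and Slc27a5, and the fatty acid binding proteins Fabp1, Fabp2, Fabp4, Fabp5 and Fabp7. They are 10 of the 25266 genes listed, and all 10 are among the 11090 genes with a mean of at least 0.5 RPKM (reads scaled to the length of the transcript and the depth of the library) that were tested.

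The study asked how the liver responds to dietary fat with and without SAPS3, the regulatory subunit of protein phosphatase 6 that is encoded by Ppp6r3. FF mice carried 2 floxed Ppp6r3 alleles and no Cre, and LKO mice carried the same alleles plus a Cre transgene. The albumin promoter drives that Cre, and hepatocytes are the cells that use it. The mice were C57BL/6 males that were 8 weeks old when feeding began, and they were fed for 16 weeks on a control diet (CD) with 10 kcal% fat or a high fat diet (HFD) with 32.5 kcal% fat. RNA of whole liver was sequenced from 4 FF and 4 LKO mice on CD and from 5 FF and 5 LKO mice on HFD. Deletion of Ppp6r3 and presence of Cre cannot be told apart in this design, and in whole liver fewer cells of a type and less RNA per cell cannot be told apart either.

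Long-chain fatty acids from the blood enter hepatocytes with the help of CD36, a scavenger receptor of the plasma membrane, and of the fatty acid transport proteins, which also activate fatty acids to their CoA esters. Inside the cell the binding proteins hold fatty acids in solution and pass them to membranes, to the enzymes of oxidation and esterification, and to nuclear receptors of the PPAR family, for which fatty acids are ligands. Cd36 is known as a gene with a low level in healthy liver that becomes abundant in fatty liver, whereas Fabp1 is the main fatty acid binding protein of hepatocytes. Many of these genes are known targets of PPAR alpha or PPAR gamma, which bind DNA as partners of RXR at direct repeats of a hexamer spaced by a single base.

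Cd36 and Fabp2 were the genes of the group whose response to diet differed between the genotypes, and Fabp1 was the most abundant. The bases before the start sites of these 3 genes are shown here for that reason, as RefSeq gives them for GRCm38.p6. Each run has the 250 bases upstream of the annotated start, read 5′ to 3′ on the strand of the gene, and capitals mark matches to the hexamer AGGTCA or to the direct repeat AGGNCANAGGNCA on either strand.
Cd36, chr5:17835897-17836146, minus strand: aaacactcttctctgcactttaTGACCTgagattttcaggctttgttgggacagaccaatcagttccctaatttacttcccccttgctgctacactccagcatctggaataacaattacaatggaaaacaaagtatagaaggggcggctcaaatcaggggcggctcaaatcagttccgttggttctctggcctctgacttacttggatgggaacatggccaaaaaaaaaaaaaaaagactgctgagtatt
Fabp1, chr6:71199629-71199878, plus strand: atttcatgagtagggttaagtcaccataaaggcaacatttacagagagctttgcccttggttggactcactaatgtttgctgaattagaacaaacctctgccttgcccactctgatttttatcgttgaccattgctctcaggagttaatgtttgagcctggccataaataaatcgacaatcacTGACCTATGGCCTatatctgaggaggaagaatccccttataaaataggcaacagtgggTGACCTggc
Fabp2, chr3:122894822-122895071, plus strand: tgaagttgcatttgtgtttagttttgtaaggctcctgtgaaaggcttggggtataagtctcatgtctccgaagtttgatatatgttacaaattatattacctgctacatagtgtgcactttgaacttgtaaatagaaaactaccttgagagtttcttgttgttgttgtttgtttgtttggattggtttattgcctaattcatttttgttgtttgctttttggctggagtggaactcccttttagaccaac

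Windows of 300 bases around the start, 250 before and 50 after it, were searched for 7 of the 10 genes: Cd36, Fabp1, Fabp2, Fabp7, Slc27a1, Slc27a2 and Slc27a4. The direct repeat was found in the window of Fabp1 alone among them, 67 bases before its start and on the strand opposite to the gene, and 0.381% of the 32851 windows of all genes hold it. The hexamer, which the repeat can contain, was found in the windows of Cd36, Fabp1, Fabp7 and Slc27a2 and is in 16.3% of all windows. The window of Cd36 belongs to 1 of several annotated starts of the gene, which spans chr5:17781690-17888801 in the GENCODE annotation. No match says only that these letters are not in these windows.

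Depth, computed from the steps between low values, was about 23400000 to 37000000 reads per mouse, and its ranges overlapped between all 4 groups. Ppp6r3 itself was at 9.34 ± 1.14 RPKM (SD, n = 4) in FF mice and 3.99 ± 0.0822 RPKM (n = 4) in LKO mice on CD, and at 8.23 ± 0.467 (n = 5) and 4.6 ± 0.271 RPKM (n = 5) on HFD. The libraries thus matched their genotype labels without overlap, and a part of the transcript remained in LKO livers. Summed hepatocyte markers were between 32786 and 50246 RPKM in every mouse. Alb alone was at 21308 to 36965 RPKM, so the sum says little about the other markers. On HFD Cps1 and Apoa1 were lower in FF mice, at log2 fold changes of -1.24 and -0.72. Fgb and Apoa1 were higher in LKO than in FF mice on HFD, at 0.91 and 0.64. A few mice carried transcripts of another tissue at low levels. FF HFD mouse 3 had Alpi, an intestinal alkaline phosphatase, at 7.82 RPKM. FF HFD mouse 4 had the fat cell hormone Adipoq at 0.760 RPKM, and LKO HFD mouse 2 had skeletal muscle Acta1 at 0.696 RPKM. The counts of called members below are also given without these 3 mice where they changed.

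A gene was called in a comparison when its fold change on the log2(RPKM + 1) scale was above 1.5 and its adjusted p from limma was under 0.05. With this rule HFD raised 4 of the 10 genes in FF mice, namely Cd36, Fabp2, Fabp4 and Fabp7, and lowered 1, Fabp5. Among all tested genes 6.6% were called in this comparison, 5.11% higher and 1.49% lower. The 10 genes were chosen with earlier results of these data known, so such counts are a description and not a test. The median log2 fold change was 0.47 for the 10 genes and 0.07 for all tested genes. In LKO mice 1 of the 10 genes was called between the diets, Fabp4, which was higher on HFD. There the background was 1.27% of tested genes, 0.965% higher and 0.307% lower, and the medians were 0.11 for the 10 genes and 0.07 for all. Without the 3 mice with transcripts of other tissues the calls were 4 in FF mice, where Fabp7 was no longer called, and 0 in LKO mice.

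**Figure D1:**
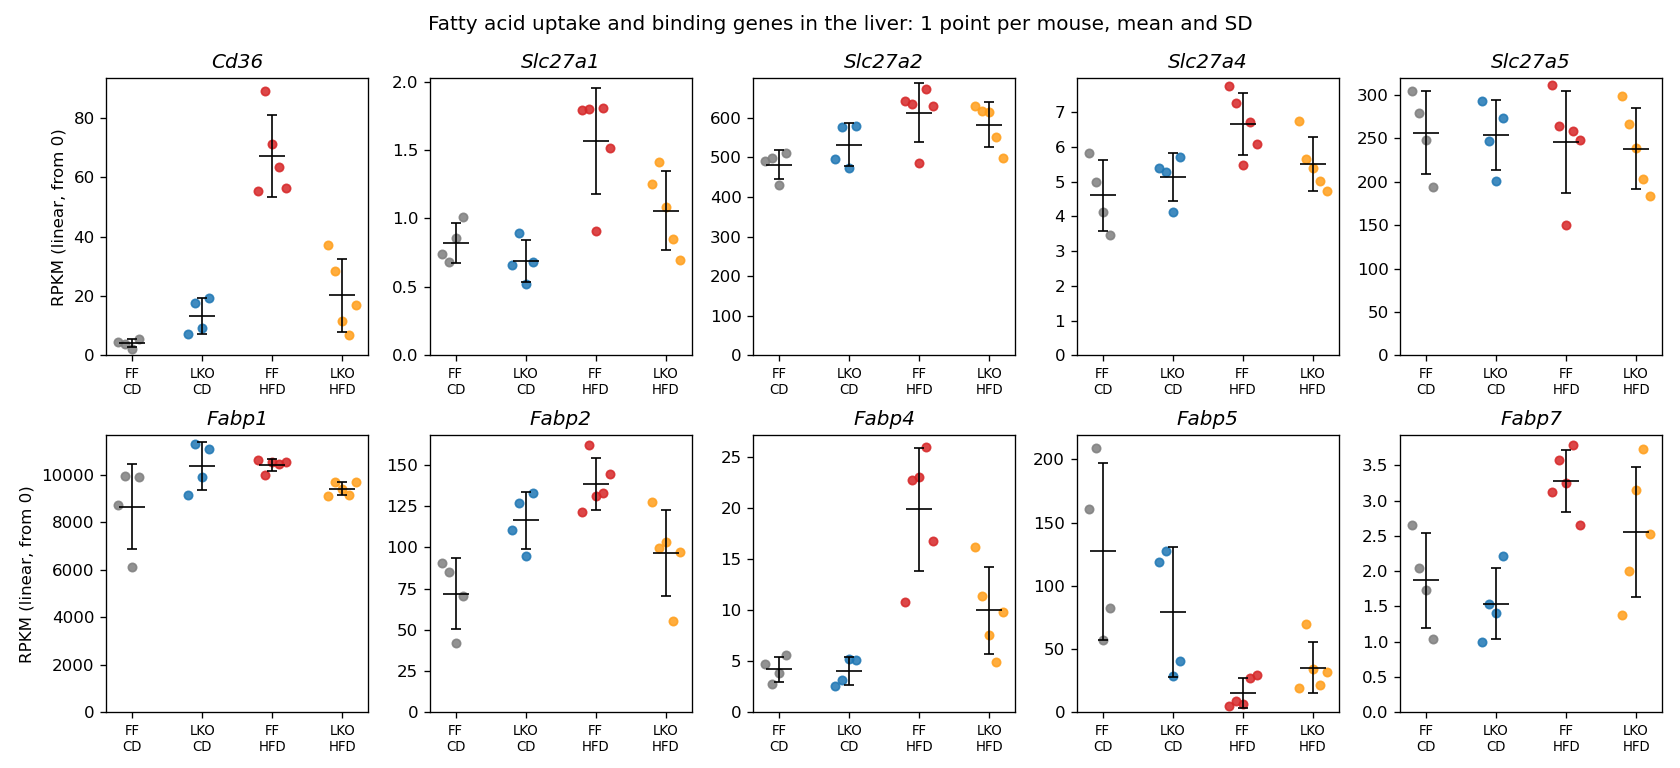
RPKM of the 10 genes on linear axes that start at 0, with 1 point per mouse and black bars for the mean and SD of each group (FF CD and LKO CD, n = 4; FF HFD and LKO HFD, n = 5). The 5 FF HFD mice lie between 55.4 and 89.1 RPKM for Cd36, above the other 13 mice, and between 5.17 and 29.8 RPKM for Fabp5, below the 4 FF CD mice.

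Cd36 had the largest change of the group. In FF mice on CD its level was 4.58, 3.88, 2.33 and 5.69 RPKM, and in FF mice on HFD it was 55.4, 89.1, 71.3, 63.6 and 56.6 RPKM. Every FF mouse on HFD was far above every FF mouse on CD, with a ratio of the means of 16.3, and the log2 fold change was 3.76 (SE 0.37, 95% confidence interval 2.98 to 4.54, adjusted p = 4.44e-06). In LKO mice on CD the level was 7.12, 17.5, 9.22 and 19.4 RPKM, and in LKO mice on HFD it was 37.1, 28.4, 11.6, 6.98 and 17.1 RPKM. These last groups overlapped widely, and the log2 fold change between the diets was 0.46 (SE 0.37, interval -0.32 to 1.24, adjusted p = 0.498). The difference between the responses of the genotypes was itself tested and was -3.30 on the log2 scale (SE 0.53, interval -4.41 to -2.2, adjusted p = 0.00186).

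Within HFD, Cd36 was 3.32 times lower in LKO than in FF mice by the ratio of the means, and no LKO mouse reached the lowest FF mouse. The log2 fold change was -1.88 (SE 0.35, interval -2.61 to -1.14, adjusted p = 0.00504), and the exact permutation p was 0.00794, the smallest that 5 against 5 mice can give. On CD the direction was the opposite one: the 4 LKO mice were all above the 4 FF mice, with a ratio of the means of 3.23. Its log2 fold change of 1.42 (SE 0.39, interval 0.60 to 2.25) had an adjusted p of 0.176 over all tested genes, while the exact permutation p of 0.0286 was the smallest that 4 against 4 mice can give, before any adjustment. The level in LKO mice on HFD also stayed above that of FF mice on CD, at a log2 fold change of 1.88 (SE 0.37, adjusted p = 0.00579). By mean level FF CD (4.12 ± 1.41 RPKM) was thus lowest, then LKO CD (13.3 ± 6.05). LKO HFD (20.2 ± 12.4) and FF HFD (67.2 ± 13.8) followed. Of the neighbours in this order, LKO HFD and FF HFD were called different. FF CD and LKO CD did not overlap but were not called, and the LKO groups overlapped and were not called. Relative to the mean, the SD on HFD was 61.2% in LKO mice and 20.5% in FF mice.

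The calls for Cd36 did not change when any single mouse was left out. Without the 3 mice that carried transcripts of other tissues its log2 fold changes were 3.74 for HFD in FF mice (adjusted p = 0.000169) and -2.03 for LKO against FF mice on HFD (adjusted p = 0.0349). Between 214 and 9113 reads per mouse lay behind the values of Cd36.

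**Figure D2:**
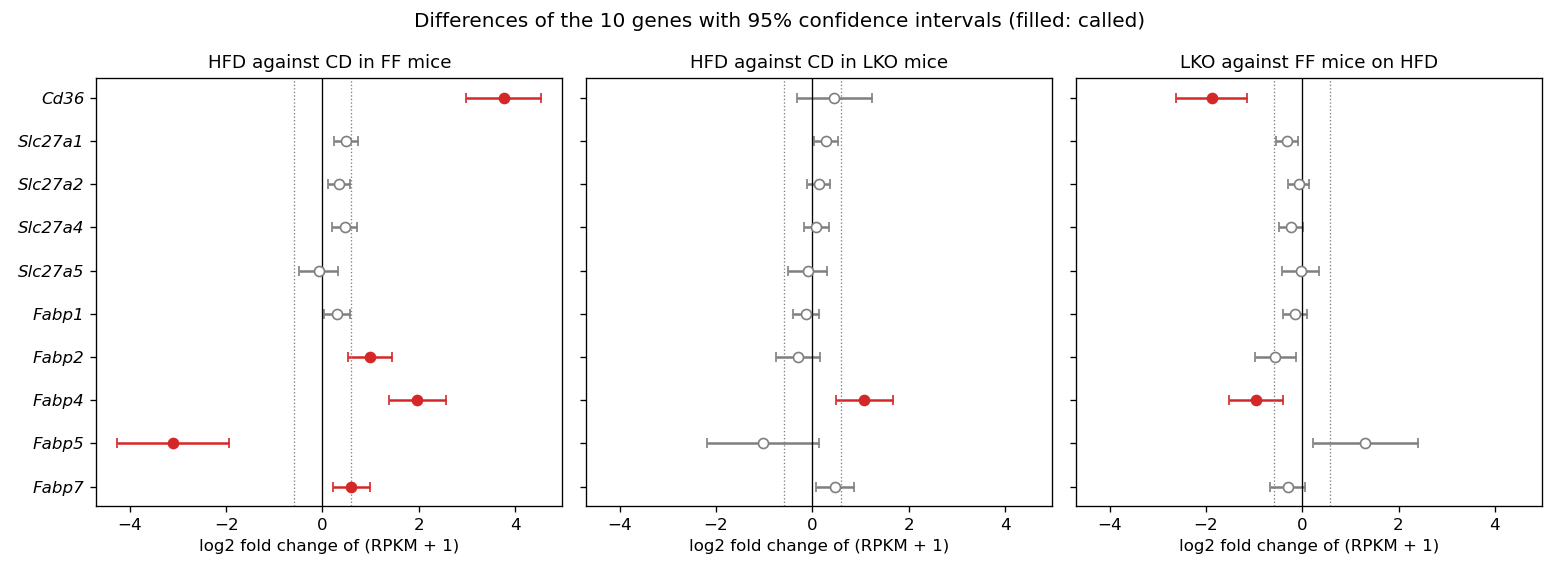
Log2 fold changes of (RPKM + 1) for the 10 genes with 95% confidence intervals in 3 comparisons, with called genes filled in red and dotted lines at a fold change of 1.5. Cd36 is at 3.76 for HFD in FF mice, 0.46 for HFD in LKO mice and -1.88 for LKO against FF mice on HFD, and Fabp5 has the opposite signs at -3.10, -1.02 and 1.31, of which the first is called.

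Cd36 is also made by endothelial cells and macrophages, and some of their markers were higher on HFD in FF mice as well. The summed level of 10 endothelial markers was 21.6 to 47.7 RPKM in FF mice on CD, 16.9 to 45.6 in LKO mice on CD, 55.0 to 90.8 in FF mice on HFD and 42.5 to 60.7 in LKO mice on HFD. Of the 10, 6 were called higher for HFD in FF mice, none for HFD in LKO mice and none between the genotypes. Of all tested genes 5.11% were higher for HFD in FF mice and 0.965% in LKO mice. The median log2 fold change of the 10 was 0.71 in FF and 0.48 in LKO mice, against 0.07 over all tested genes in each. None of the 10 was called for the difference of the responses. Pecam1, an adhesion molecule of endothelium, rose from 2.11 ± 0.777 (n = 4) to 5.59 ± 1.41 RPKM (n = 5) in FF mice, a log2 fold change of 1.09. The summed level of 13 macrophage and Kupffer cell markers was 61.5 to 84.8 RPKM in FF mice on CD, 58.2 to 85.1 in LKO mice on CD, 74.6 to 152 in FF mice on HFD and 75.7 to 136 in LKO mice on HFD. Of the 9 macrophage markers tested, 3 were called higher for HFD in FF mice (Adgre1, Vsig4 and Csf1r). In LKO mice 1 was (Clec4f, named after its values were seen), and none was called between the genotypes on either diet. Their median log2 fold change was 0.60 in FF and 0.54 in LKO mice, and none was called for the difference of the responses. The summed level of 6 stellate cell markers was 8.80 to 13.4, 9.43 to 14.6, 11.7 to 18.6 and 8.17 to 13.9 RPKM in FF CD, LKO CD, FF HFD and LKO HFD mice. Among these 6, Col1a1, a collagen chain, was the only gene called. It was called in the direction of Cd36 for HFD in FF mice (1.16) and for LKO against FF mice on HFD (-1.15, adjusted p = 0.0157). So it was for the difference of the responses (-1.51, adjusted p = 0.0364). For LKO HFD against FF CD mice, where Cd36 was called, Col1a1 was at 0.005 (adjusted p = 0.994). No defining marker of these cell types was at 0 in a whole group, and the part of these cells in the change of Cd36 was not tested.

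**Figure D3:**
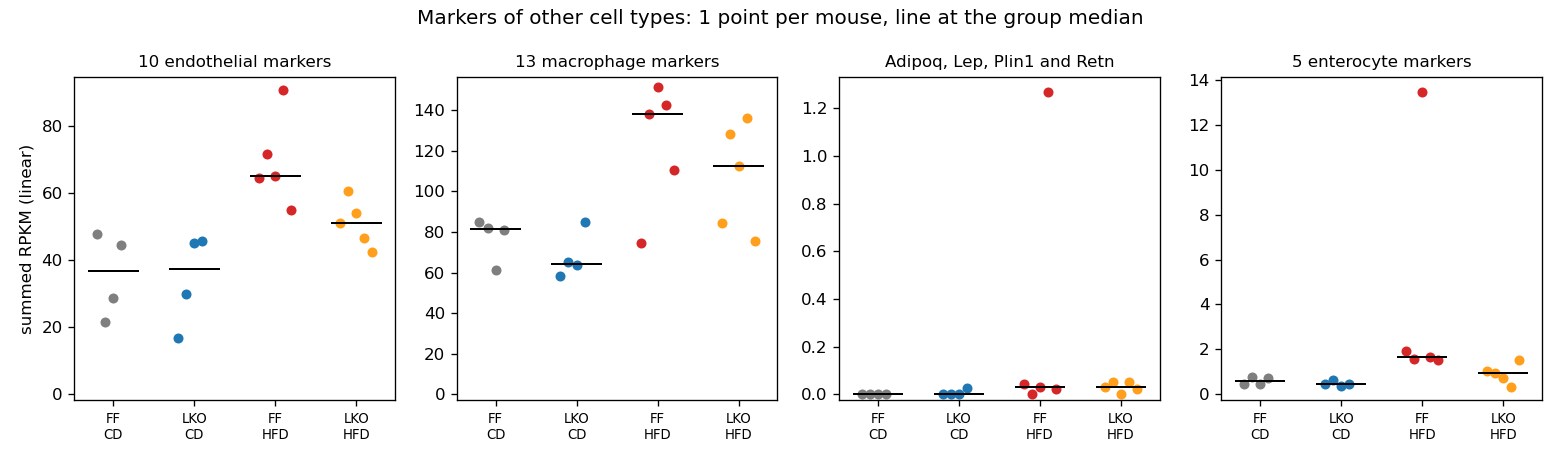
Summed RPKM of marker lists on linear axes, with 1 point per mouse and a line at the group median. Endothelial markers are at 55.0 to 90.8 RPKM in FF HFD mice against 21.6 to 47.7 in FF CD mice, and FF HFD mouse 4 stands apart for the 4 fat cell genes at 1.27 RPKM and FF HFD mouse 3 for the 5 enterocyte markers at 13.5 RPKM.

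The fatty acid transport proteins changed far less than Cd36, and none of the 4 was called in any of the 6 comparisons. Slc27a2, a very long-chain acyl-CoA synthetase of liver and kidney, and Slc27a5, which activates bile acids in the liver, were the abundant ones. Slc27a2 ranged from 429 to 510 RPKM in FF mice on CD, from 474 to 579 in LKO mice on CD, from 485 to 673 in FF mice on HFD and from 497 to 630 in LKO mice on HFD. Its log2 fold change for HFD in FF mice was 0.34 (SE 0.11, adjusted p = 0.0377), which is under the fold limit. Slc27a5 had means of 257, 254, 246 and 238 RPKM in the same order of groups, and its log2 fold change for HFD in FF mice was -0.08 with an interval from -0.48 to 0.33.

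Slc27a1, the transport protein of muscle and fat, and Slc27a4, a form with broad expression, were low in these livers. Slc27a1 was at 0.742, 0.679, 0.861 and 1.01 RPKM in FF mice on CD and at 1.79, 1.80, 0.907, 1.81 and 1.51 RPKM in FF mice on HFD. One FF mouse on HFD lay within the range of CD. The log2 fold change of 0.48 (SE 0.12, adjusted p = 0.00828) was under the fold limit on the log2(RPKM + 1) scale, which understates changes of low genes. The ratio of the means was 1.90. With a pseudocount of 0.1 the log2 fold change was 0.82 and passed (adjusted p = 0.0111). Slc27a4 was at 4.61 ± 1.03 RPKM (n = 4) in FF mice on CD and 6.66 ± 0.903 RPKM (n = 5) on HFD, a log2 fold change of 0.46 (SE 0.12, adjusted p = 0.0140). In LKO mice the same difference was 0.28 for Slc27a1 (adjusted p = 0.179) and 0.08 for Slc27a4 (adjusted p = 0.741), and the differences between the responses did not pass the test for either, at -0.20 (adjusted p = 0.586) and -0.38 (adjusted p = 0.296). FF HFD mouse 3, which carried enterocyte transcripts, had the lowest value of its group for each of the 4 transport proteins.

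Fabp1, the binding protein of liver, was the most abundant of the 10 genes in all 4 groups and made up 1.65 to 3.37% of the summed RPKM of a mouse. Its level was 8708, 9922, 6107 and 9887 RPKM in FF mice on CD and 9138, 11304, 9920 and 11097 RPKM in LKO mice on CD. On HFD it was 10607, 9986, 10514, 10434 and 10526 RPKM in FF mice and 9100, 9695, 9399, 9161 and 9695 RPKM in LKO mice. FF mice on HFD were all above FF mice on CD and all above LKO mice on HFD, with an exact permutation p of 0.00794 in each case, but the differences were small. The log2 fold changes were 0.29 (SE 0.13, adjusted p = 0.117) and -0.15 (SE 0.12, adjusted p = 0.536), and neither was called. After quantile normalization the first was 0.71 and called (adjusted p = 0.000267). The difference between the responses, -0.43 as deposited, was then -0.995 and called (adjusted p = 0.00152). This normalization gives a gene a value set by its rank in the mouse. LKO against FF mice on CD came out at the same 0.71. HFD in LKO mice and LKO against FF mice on HFD both came out at -0.288. The size of a change in Fabp1 can thus not be read from these calls.

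Fabp2, the binding protein of the small intestine, was next among the binding proteins on HFD. FF mice on CD had 90.3, 85, 42.3 and 70.2 RPKM and FF mice on HFD had 121, 162, 131, 133 and 144 RPKM. The groups did not overlap, and the log2 fold change was 0.98 (SE 0.22, interval 0.53 to 1.44, adjusted p = 0.00378). LKO mice had 111, 127, 94.8 and 133 RPKM on CD and 127, 99.5, 103, 55.6 and 97.2 RPKM on HFD, a log2 fold change of -0.30 (SE 0.22, interval -0.76 to 0.15, adjusted p = 0.430). The response of LKO mice was lower than that of FF mice by 1.29 on the log2 scale (SE 0.30, adjusted p = 0.0285), and without the 3 mice with transcripts of other tissues this difference was -1.35 (adjusted p = 0.0716). Its call was also lost without FF CD mouse 3, LKO CD mouse 2 or 4, or FF HFD mouse 2. On CD all 4 LKO mice were above all 4 FF mice, as for Cd36, at a log2 fold change of 0.73 (SE 0.23, adjusted p = 0.291, exact permutation p = 0.0286).

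Enterocytes are the main source of Fabp2 in the body, and FF HFD mouse 3 had enterocyte transcripts. Its summed level of 5 enterocyte markers was 13.5 RPKM, against 1.53 to 1.95 RPKM in the other FF mice on HFD and 0.451 to 0.780 RPKM in FF mice on CD, where the defining markers Sis and Alpi were at 0. Its Fabp2 level of 131 RPKM was the second lowest of its group, and the log2 fold change of Fabp2 for HFD in FF mice was 1.02 without the 3 mice. Treh, the marker of this list that was tested, rose from 0.575 ± 0.189 to 1.90 ± 0.779 RPKM in FF mice and is also expressed in the other livers. It was called lower in LKO than in FF mice on HFD, at -0.66 (adjusted p = 0.0298). Treh made up most of the sum in the other FF mice on HFD, such as 1.93 of 1.95 RPKM in mouse 1. The reads of Fabp2 could include those of its antisense gene 4933405D12Rik, whose mean was 0.0854 RPKM, since use of strand in counting is not given in the sources used here.

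Fabp4, the binding protein of fat cells and macrophages, also rose on HFD in FF mice. It was at 4.71, 2.75, 3.83 and 5.62 RPKM in FF mice on CD and 10.8, 22.7, 23.0, 25.9 and 16.8 RPKM in FF mice on HFD. Again no mice overlapped, and the log2 fold change was 1.97 (SE 0.28, interval 1.38 to 2.56, adjusted p = 0.000135). LKO mice had 2.54, 3.18, 5.23 and 5.12 RPKM on CD and 16.1, 11.4, 7.61, 4.93 and 9.78 RPKM on HFD, so that 1 LKO mouse on HFD lay within the range of CD. LKO mice thus had a log2 fold change of 1.08 (SE 0.28, interval 0.49 to 1.68, adjusted p = 0.0407), and it stayed called when any of 9 of the 18 mice was left out and not when any of the other 9 was. The difference between the responses was -0.89 (SE 0.40, interval -1.73 to -0.05) with an adjusted p of 0.273.

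On HFD, Fabp4 was lower in LKO than in FF mice by 0.96 on the log2 scale (SE 0.27, adjusted p = 0.0494). This call was lost when any of 16 of the 18 mice was left out, FF and LKO mice on both diets among them, with log2 fold changes from -1.15 to -0.76. FF HFD mouse 4, which had the highest Fabp4 level, was the mouse named above for Adipoq. The summed level of Adipoq, Lep, Plin1 and Retn was 1.27 RPKM in it and at most 0.0527 RPKM in every other mouse. All 4 were at 0 in FF mice on CD. The listed fat cell markers Pck1, Adrb3 and Cfd were left out of this sum. Cfd did not single out this mouse, at 0.977 RPKM. It was at 2.11 RPKM in FF HFD mouse 5, 1.96 in LKO HFD mouse 1 and 2.40 in LKO HFD mouse 2. Without the 3 mice with transcripts of other tissues, the log2 fold change of Fabp4 was 1.74 for HFD in FF mice (adjusted p = 0.00324) and -0.79 between the genotypes on HFD (adjusted p = 0.236).

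Fabp5, the epidermal binding protein, was the 1 member that fell on HFD in FF mice. FF mice on CD had 161, 209, 57.2 and 82.5 RPKM, and FF mice on HFD had 5.17, 8.70, 6.96, 26.8 and 29.8 RPKM. All FF mice on HFD were below those on CD, with means 8.21 times apart, and the log2 fold change was -3.10 (SE 0.55, interval -4.26 to -1.94, adjusted p = 0.000901). In LKO mice the level was 119, 128, 29.1 and 40.9 RPKM on CD and 19.6, 69.9, 34.4, 21.5 and 31.9 RPKM on HFD. These overlapped, with a log2 fold change of -1.02 (SE 0.55, interval -2.18 to 0.14, adjusted p = 0.290). Neither the difference between the responses (2.08, SE 0.78, adjusted p = 0.178) nor that between the genotypes on HFD (1.31, SE 0.52, adjusted p = 0.177) passed. The level on CD fell into a higher and a lower pair of mice in each genotype. In both genotypes the higher pair was mice 1 and 2 and the lower pair mice 3 and 4. What the label numbers stand for is not given, and the cause was not tested. In a limma fit with the replicate block the log2 fold change for HFD in FF mice was -3.25 (adjusted p = 0.000821). Fabp5 has 5 processed pseudogenes that match 336 to 409 bases of its transcript at 93.6 to 98.3% identity, and how reads were shared among them is not given, so its level is uncertain.

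Fabp5 lies 187 kb from Fabp4 on chromosome 3, with Fabp5 at chr3:10012548-10016607 on the plus strand and Fabp4 at chr3:10204088-10208576 on the minus strand in the GENCODE annotation of GRCm38. In FF mice on HFD the neighbours were called in opposite directions, Fabp4 at 1.97 and Fabp5 at -3.10 on the log2 scale.

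Fabp7, the binding protein of brain, was low in every mouse. It was at 2.66, 2.04, 1.74 and 1.03 RPKM in FF mice on CD and 3.13, 3.58, 3.25, 3.78 and 2.65 RPKM in FF mice on HFD. The groups touched at 2.65 and 2.66 RPKM, and the log2 fold change of 0.60 (SE 0.19, interval 0.21 to 0.99, adjusted p = 0.0288) was just over the fold limit, with 19 to 88 reads per mouse behind the values of all 18 mice. In LKO mice the means were 1.54 ± 0.505 RPKM on CD (n = 4) and 2.56 ± 0.926 RPKM on HFD (n = 5), a log2 fold change of 0.46 (SE 0.19, adjusted p = 0.152). The call in FF mice was lost without FF CD mouse 3 or 4 or FF HFD mouse 2 or 4, and without the 3 mice with transcripts of other tissues (0.55, adjusted p = 0.117). It was also lost without the filter, after centring, after quantile normalization and without moderation of the variance, at adjusted p of 0.0578, 0.0523, 0.0504 and 0.0544.

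Between the genotypes, 2 of the 10 genes were called on HFD, Cd36 and Fabp4, both lower in LKO mice. The background was 2.07% of tested genes, 0.902% higher and 1.17% lower in LKO mice, and 1 of the 2, Cd36, was called without the 3 mice with transcripts of other tissues. On CD limma called 0 of the 10 genes, against a background of 0.225%, 0.0902% higher and 0.135% lower in LKO mice. At an unadjusted limma p under 0.05 there were 2, Cd36 and Fabp2. The share of all tested genes at this limit was not counted. Limma with voom weights on the reads recovered from the values called 0 as well. In LKO mice on HFD against FF mice on CD 3 were called, against a background of 3.17%, 2.37% higher and 0.803% lower: Cd36 and Fabp4 were higher, at log2 fold changes of 1.88 and 1.01, and Fabp5 was lower, at -1.79 (adjusted p = 0.0462). Without the 3 mice 2 were called, and Fabp4 was not (0.95, adjusted p = 0.0604). In this comparison the call of Fabp4 was lost without any of 5 single mice (FF CD mouse 2 or 3, LKO HFD mouse 1, 2 or 3). That of Fabp5 was lost without any of 9 (FF CD mouse 1, 2 or 4, LKO CD mouse 4, FF HFD mouse 2, LKO HFD mouse 1, 3, 4 or 5). A difference of the HFD response between the genotypes was called for 2 of the 10, Cd36 and Fabp2, against a background of 2.44%. Without the 3 mice it was called for 1, Cd36. At a limma p under 0.05 before adjustment there were 6 of the 10, but the share of all tested genes at that limit was not counted. These comparisons share groups of mice, so their results are not independent of each other. The balance of directions over all tested genes moved with scaling. For HFD in FF mice 567 genes were higher and 165 lower as deposited and 410 and 236 after centring on the median. The same counts were 107 and 34 against 40 and 48 for HFD in LKO mice. For LKO HFD against FF CD mice they were 263 and 89 against 117 and 137. After rescaling to the same sum the split was 83 higher and 167 lower for LKO against FF mice on HFD, against 100 and 130 as deposited, and 112 and 299 for the difference of the responses, against 105 and 166. The directions of the called members were the same under each of these scalings.

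Genes around fatty acid entry were described, not tested as sets, from lists of known function chosen with earlier results of these data known. Their counts and medians are to be read against all tested genes, of which 5.11% were higher and 1.49% lower for HFD in FF mice (median log2 fold change 0.07), 0.965% higher in LKO mice (median 0.07), and 1.17% lower in LKO than in FF mice on HFD (median 0.03). The relatives outside the group, Slc27a3, Slc27a6, Fabp3, Fabp6, Fabp12 and the scavenger receptors Scarb1 and Scarb2, had 2 members with a mean of at least 0.5 RPKM, Scarb1 and Scarb2, and neither was called in any comparison. Of 14 tested membrane partners of fatty acid entry, 3 were higher on HFD in FF mice, none in LKO mice, and 1 was lower in LKO than in FF mice on HFD. Their median log2 fold change was 0.26 for HFD in FF mice against 0.07 over all tested genes. The last one was Mfsd2a, a transporter of lysophospholipids, at 36.0 ± 10.8 RPKM in FF mice on CD, 62.1 ± 10.8 in LKO mice on CD, 83.9 ± 23.8 in FF mice on HFD and 38.5 ± 9.66 in LKO mice on HFD. Its log2 fold change between the genotypes on HFD was -1.10 (adjusted p = 0.0109). Mfsd2a was also the 1 of the 14 called for the difference of the responses, at -1.91 (adjusted p = 0.00442). The others were the caveola coat gene Cavin2, at 0.75, and Lyplal1, a lysophospholipase-like gene, at 0.63 for HFD in FF mice.

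Acyl-CoA synthetases and acyl-CoA binding proteins take up the fatty acid once it is inside. Of 14 tested, 2 were higher on HFD in FF mice and none was called in LKO mice, and the median log2 fold change in FF mice was 0.06, against 0.07 over all tested genes. Acss3, a mitochondrial short-chain acyl-CoA synthetase, rose from 2.50 ± 1.08 to 9.01 ± 1.2 RPKM in FF mice (log2 fold change 1.57) and was lower in LKO mice on HFD, at 3.34 ± 0.965 RPKM (log2 fold change -1.22, adjusted p = 0.000983). Acss3 was also the 1 of the 14 called for the difference of the responses, at -1.81 (adjusted p = 0.00146). Acsl1, the main long-chain synthetase of liver, rose from 190 ± 30.4 to 312 ± 26.9 RPKM in FF mice (log2 fold change 0.72, adjusted p = 0.00153). Acsl4, which prefers arachidonic acid, was higher in LKO than in FF mice on HFD by 0.61 on the log2 scale (adjusted p = 0.00811).

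Of 15 tested genes of lipoprotein lipid supply and uptake, 3 were higher and 1 was lower on HFD in FF mice, with a median log2 fold change of 0.11 against 0.07. Apoc2, the activator of lipoprotein lipase, rose by 0.99 on the log2 scale and was lower in LKO than in FF mice on HFD by 0.84 (adjusted p = 0.00503). Gpihbp1, which anchors the lipase to endothelium, rose by 0.88 in FF mice and Angptl4, an inhibitor of the lipase, by 0.84. In LKO mice they were at 0.11 and 0.75 (adjusted p = 0.846 and 0.0598). The difference of the responses of Angptl4 was -0.09 (adjusted p = 0.914). Angptl8, another regulator of the lipase, fell by 1.58 in FF mice, from 32.7 ± 12.5 to 10.1 ± 3.45 RPKM. In LKO mice 1 of the 15 was called between the diets, the lipoprotein receptor Lrp1 (0.68 higher on HFD, adjusted p = 0.0499), which is named after its values were seen.

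Known targets of the PPARs were described in the same way. Of 20 targets of PPAR alpha, 16 were higher on HFD in FF mice, with a median log2 fold change of 1.11, none was called in LKO mice (median 0.29), and 1 was lower in LKO than in FF mice on HFD. The difference of the responses was called for 9 of the 20, lower in LKO mice (median -0.60), against 1.5% of all tested genes. In LKO mice on HFD against FF mice on CD 13 of the 20 were higher (median 0.82), against 2.37% of all tested genes. The gene lower in LKO than in FF mice on HFD was Acot2, a mitochondrial acyl-CoA thioesterase, at 1.62 ± 0.714 RPKM in FF mice on CD, 4.76 ± 2.64 in LKO mice on CD, 15.6 ± 4.67 in FF mice on HFD and 7.43 ± 1.84 in LKO mice on HFD. On CD 2 of the 20 were higher in LKO than in FF mice (median 0.47), against 0.0902% of all tested genes (median 0.03). They were the omega-hydroxylases Cyp4a14 and Cyp4a10, at 4.43 (adjusted p = 0.000874) and 2.85 (adjusted p = 0.00127) on the log2 scale. Cd36 and Fabp2, which were not called on that diet, lay in the same direction, and a link was not tested. Vnn1, a pantetheinase, rose by 2.80 in FF mice.

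Of 8 tested targets of PPAR gamma in fatty liver, 7 were higher on HFD in FF mice, with a median of 2.06. In LKO mice 2 were higher, Fitm2 at 0.71 and G0s2 at 1.22, which are named after their values were seen, and the median was 0.70. The difference of the responses was called for 3 of the 8, lower in LKO mice (median -1.52), and 5 were higher in LKO mice on HFD than in FF mice on CD (median 1.01). Between the genotypes on HFD 3 were lower in LKO mice, with a median of -0.93. Those last 3 were the lipid droplet genes Cidec and Plin4 and the monoacylglycerol acyltransferase Mogat1. Mogat1 was at 0.342 ± 0.215, 0.679 ± 0.307, 5.22 ± 0.590 and 1.23 ± 1.2 RPKM in FF CD, LKO CD, FF HFD and LKO HFD mice, and its log2 fold change between the genotypes on HFD was -1.61 (adjusted p = 0.000472). Cidea, another droplet gene, had a log2 fold change of 2.66 for HFD in FF mice and of -1.94 between the genotypes on HFD, where its adjusted p was 0.0661.

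Among 12 nuclear receptors and partners that act on Cd36 in liver, 1 was called for HFD in FF mice, with a median log2 fold change of -0.01 over the 12. It was Pparg, at 2.34 ± 0.626 RPKM in FF mice on CD, 6.96 ± 2.81 in LKO mice on CD, 8.0 ± 2.2 in FF mice on HFD and 5.29 ± 1.92 in LKO mice on HFD. Its log2 fold change was 1.41 for HFD in FF mice (adjusted p = 0.000833) and -0.32 in LKO mice (adjusted p = 0.478). The difference of -1.72 between the responses was called (adjusted p = 0.0108). Of the 12, 2 were called for that difference, both lower in LKO mice, against 1.5% of all tested genes. The other was Nr1i2, at -0.67 (adjusted p = 0.0228), which is named after its values were seen.

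**Figure D4:**
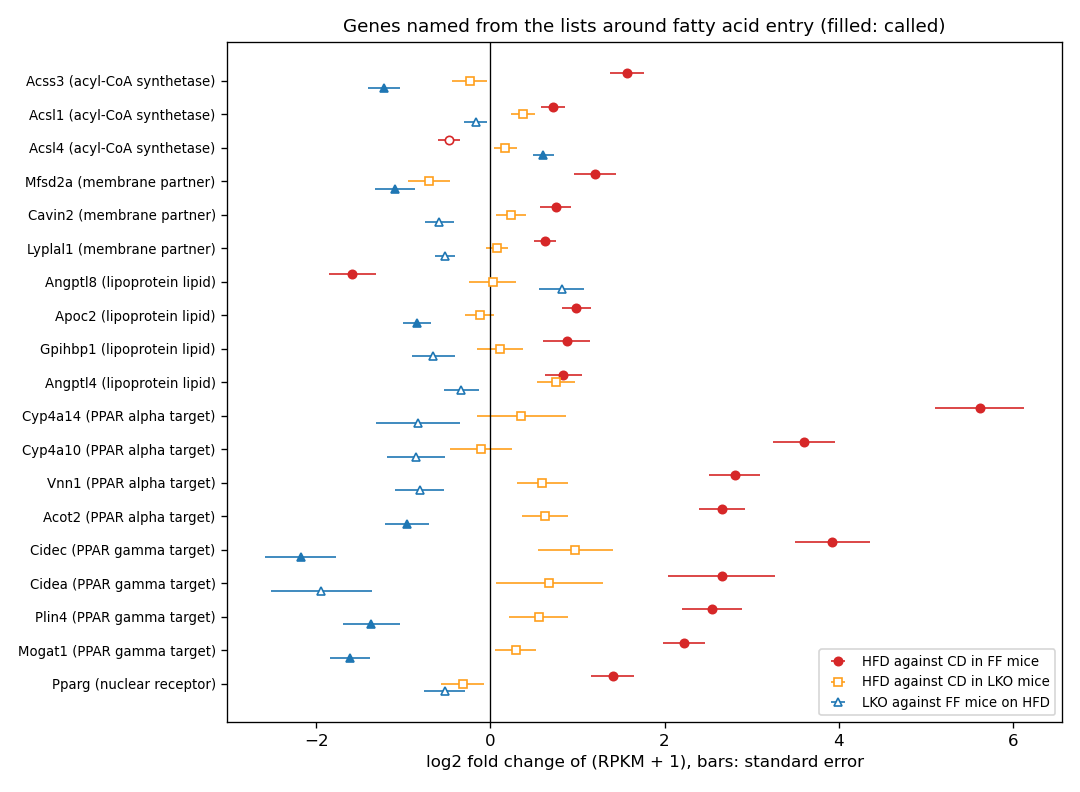
Log2 fold changes of (RPKM + 1) with standard errors for 19 genes named from 6 lists, with red circles for HFD in FF mice, orange squares for HFD in LKO mice and blue triangles for LKO against FF mice on HFD, filled where called. Cyp4a14 is at 5.62 and Cidec at 3.93 for HFD in FF mice, and no orange square is filled. The genes were picked among those called in the red or the blue comparison. Fitm2, G0s2 and Lrp1, called for HFD in LKO mice at 0.71, 1.22 and 0.68, are therefore not shown.

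The 5 tested genes whose log2(RPKM + 1) followed that of Cd36 most closely over the 18 mice were led by Lgals1, a galectin (Pearson r = 0.966, Spearman rho = 0.957). The others were 4931406C07Rik (r = 0.955, rho = 0.961), Slc22a27, an organic anion transporter (r = 0.952, rho = 0.973), Arl4a, a small GTPase (r = 0.949, rho = 0.942), and Rmdn3, a mitochondrial outer membrane protein (r = 0.947, rho = 0.924). These coefficients describe 18 mice in 4 groups that share diet and genotype, and part of each comes from the differences between the groups. After the mean of each group was removed r was 0.846 for Lgals1 and between 0.725 and 0.767 for the other 4. Lgals1 was at 7.64 ± 2.54, 18.5 ± 8.32, 58.0 ± 15.4 and 21.2 ± 11.4 RPKM in FF CD, LKO CD, FF HFD and LKO HFD mice, with the means in the order of those of Cd36. Among the other 9 genes of the group, r with Cd36 was highest for Fabp4 (0.879, and 0.714 without the group means) and Fabp2 (0.814, and 0.740), and it was between 0.724 and 0.737 for Slc27a1, Slc27a2 and Slc27a4. It was lowest for Fabp5 (-0.725, and 0.0771 without the group means).

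**Figure D5:**
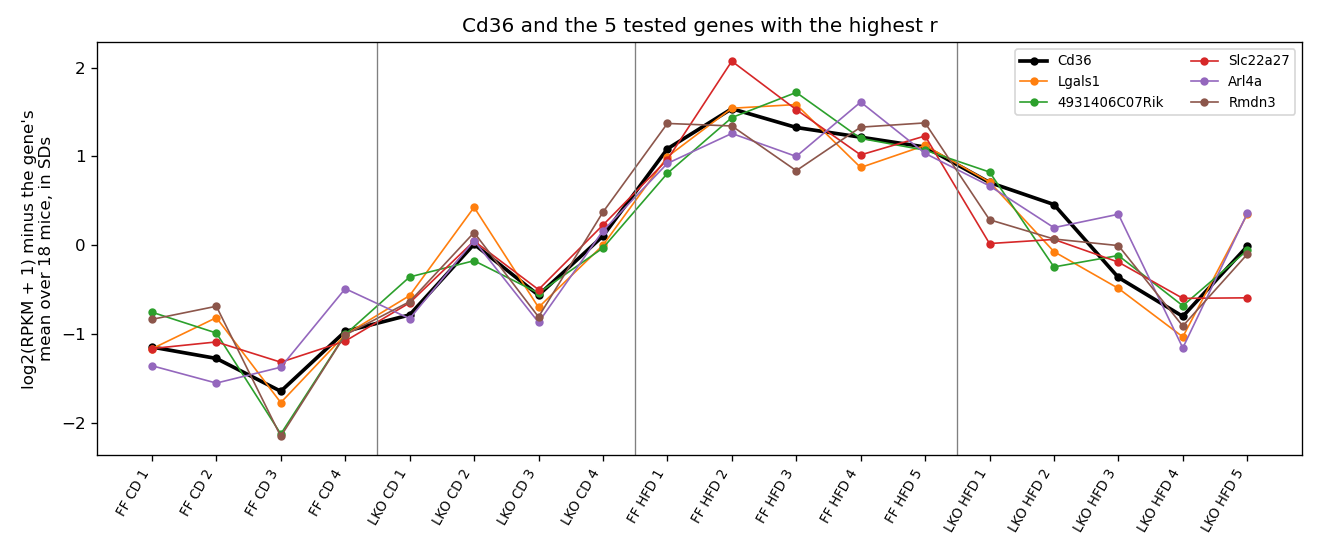
Levels of Cd36 (black) and of the 5 genes most like it in the 18 mice, as log2(RPKM + 1) minus the mean of the gene, in SDs. Mice are set out by group and label number, whose meaning is not given in the sources used here. The group mean of Cd36 and of Lgals1 is highest in FF HFD mice and lowest in FF CD mice. The 5 genes have r of 0.947 to 0.966 to Cd36.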

How the data were processed

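Liver RNA of 18 mice was analysed. The authors deposited RPKM values per gene for each mouse, made with HISAT2 2.0.4 and Partek on mm10 per the labels. How genes were counted, whether strand was used and the gene annotation are not given in the sources used here. The labels describe Trizol extraction and a small RNA library kit beside a standard RNA-seq protocol, and which was used for these libraries is not stated. Positions are from GENCODE vM21 (GRCm38, the sequence of mm10), where 24417 symbols matched, and promoter windows from RefSeq (GRCm38.p6).

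Values were used as deposited. Steps between low RPKM values gave the depth of each library, and whole reads were recovered for 8402 (75.8%) of the 11090 tested genes and for 9 of the 10 members (mean distance from a whole number under 0.03, or 0.06 for a member). Intervals cover the spread between mice, and where nothing says otherwise mice are taken as separate animals.

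Linear models were fitted with limma 3.58.1 (R 4.3.3; eBayes with trend after contrasts.fit) to log2(RPKM + 1), keeping genes whose RPKM averaged 0.5 or more across the 18 mice, with 1 coefficient for each of the 4 groups, and two-sided p-values adjusted by Benjamini-Hochberg over all tested genes. Genes were called at a fold change above 1.5 and an adjusted p under 0.05. For single members a two-sided exact permutation test was run, unadjusted. The fit was checked on simulated data. Likeness to Cd36 was measured by Pearson r over the 18 mice. Python 3.11.15, numpy 2.4.6, pandas 2.3.3, scipy 1.17.1 and matplotlib 3.10.9 were used, and blastn 2.17.0 for similar transcripts.

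The members and the lists of related genes and cell markers were chosen with earlier results of these data known. Named genes are the 10 members, Ppp6r3, the 5 genes most like Cd36, and up to 4 genes per list with the largest change among those called for HFD in FF mice or between the genotypes on HFD. Beside the lists described with the results, 8 hepatocyte markers had 2 members lower on HFD in FF mice (Cps1 and Apoa1, at -1.24 and -0.72 on the log2 scale) and 2 higher in LKO than in FF mice on HFD (Fgb and Apoa1, at 0.91 and 0.64). Of 2 tested cholangiocyte markers none was called, of 6 stellate cell markers 1 (Col1a1, given with the results), of 3 tested fat cell markers 1 (Adrb3, -0.63 for HFD in FF mice), and no muscle marker passed the filter. Alternatives were a pseudocount of 0.1, no filter or one at a mean RPKM of 1, rescaling to the same sum, centring on the median, quantile normalization, only the groups compared, a replicate block, no moderation, the adjusted p alone and dropping single mice in turn. The fit without the 3 mice with transcripts of other tissues and limma with voom weights on recovered reads were added after seeing the data.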

Additional observations from a re-analysis of the deposited data

Results flagged for a closer look

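A difference of the HFD response between the genotypes (LKO minus FF mice) was called for Cd36, at -3.30 on the log2 scale (limma adjusted p = 0.00186). It was also called for Fabp2, at -1.29 (adjusted p = 0.0285), though not when certain single mice were left out. Of 44 groups of 4 or 5 mice tested for a mouse far from the others, 2 had one, and chance gives about 1 in 20. Slc27a2 was 485 RPKM in FF HFD mouse 3, below the other 4 mice of its group, and that mouse also carried enterocyte transcripts. Fabp1 was 9986 RPKM in FF HFD mouse 2, below the other 4 mice of its group, which lay between 10434 and 10607 RPKM.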

How the results depend on the processing

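The calls for Cd36 were the same under every alternative run, with log2 fold changes of 3.67 to 4.06 for HFD in FF mice and -2.03 to -1.88 for LKO against FF mice on HFD. For HFD in FF mice 5 members were called, 8 by the adjusted p alone, 6 with a pseudocount of 0.1 or with voom on recovered reads (Slc27a1 added), 4 without the filter, after centring, without moderation and without the 3 mice with transcripts of other tissues (Fabp7 lost), and 4 to 5 when each mouse was left out. The share of all tested genes that passed the adjusted p alone was not counted. After quantile normalization, which sets the level of a gene by its rank in the mouse, there were 5, with Fabp1 in place of Fabp7. For HFD in LKO mice the single call, Fabp4, became 0 without the filter, after centring or quantile normalization, with only the groups compared, with the replicate block, without moderation, without the 3 mice with transcripts of other tissues and with voom on recovered reads, and 0 to 1 with a mouse left out. Between the genotypes on CD there was 1 call after quantile normalization, Fabp1, and 0 with each mouse left out. Between the genotypes on HFD the 2 calls became 1 with a pseudocount of 0.1, without the filter, with only the groups compared, with the replicate block, without moderation and without the 3 mice, and 1 to 2 with a mouse left out. For LKO HFD against FF CD mice, of 3 calls, 1 was left without the filter or without moderation, 2 after centring or quantile normalization, with the replicate block, with voom and without the 3 mice (Fabp4 lost), and 1 to 3 with a mouse left out. For the difference of the responses 1 was called without the filter, without moderation and without the 3 mice, 3 after quantile normalization (Fabp1 added), and 1 to 2 with a mouse left out. A fit of only the groups compared was not run for it, since all 4 groups enter.

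Signs turned for values near 0 that were never called. Slc27a5 for HFD in FF mice was 0.011 after rescaling and 0.11 without the 3 mice, and -0.21 to 0.088 with a mouse left out. Slc27a4 for HFD in LKO mice was -0.013 after centring and -0.0090 after quantile normalization. With a mouse left out, Slc27a5 was -0.14 to 0.10 for the genotypes on CD (0.0044 after rescaling), -0.20 to 0.063 on HFD and -0.19 to 0.11 for the difference of the responses, Fabp4 was -0.22 to 0.084 on CD, Fabp1 was -0.012 to 0.22 for LKO HFD against FF CD mice, and Fabp7 was -0.27 to 0.016 for the difference of the responses. The cause was not tested. Scaling moved the median of all genes by over 0.1 in LKO HFD against FF CD mice, from 0.10 to -0.026 after centring. Over all tested genes replicate numbers did not pair the mice (same-numbered mice correlated at -0.17 to 0.33, median 0.05). Fabp5 on CD was nevertheless higher in mice 1 and 2 than in mice 3 and 4 of both genotypes. The replicate block kept the 5 calls in FF mice. Depth limits Fabp7 most, with 19 to 88 reads per mouse, and Slc27a1, with 54 to 253.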
